A study of Mus musculus with 8 samples.

Results

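The genes described here are 41 genes of DNA replication and S phase, the phase of the cell cycle in which the genome is copied. They were taken by name from a list of replication genes, with no rule on the measured values but with earlier results of these data known. Each matched 1 of the 48709 Ensembl gene identifiers of the count files. All 41 passed the filter on low counts that left 12696 genes for testing. They were measured by RNA sequencing in cultures of hematopoietic stem and progenitor cells (HSPCs) of the mouse, sorted from C57Bl/6J mice as cells without lineage markers that carry Sca1 and cKit. The malonyl-CoA group was cultured for 7 days with 100 µM malonyl-CoA, the carbon donor of fatty acid synthesis, and the control group was cultured without it. Both groups grew in the same serum-free medium, which held 100 ng/ml of stem cell factor and 2 ng/ml of Flt3 ligand, from 10000 seeded cells per well. Each group held 4 libraries, numbered 1, 3, 4 and 5 in both, and the labels do not say whether a number stands for an animal, a pool or a culture, so p-values measure the spread between these samples only.

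Replication starts at origins, where the origin recognition complex, Cdc6 and Cdt1 load the ring-shaped MCM helicase onto DNA before S phase. At the start of S phase the helicase is switched on by Cdc45 and the GINS complex, and polymerases, a sliding clamp and its loader, a ligase and histone chaperones then copy the DNA and rebuild chromatin behind the fork. Most of these genes are transcribed in waves under E2F factors as cells pass from G1 into S phase, so their RNA is widely read as a sign of proliferation. Stem cell factor and Flt3 ligand drive cultured progenitors to divide. In bulk RNA, fewer cells in S phase and less RNA per cell cannot be told apart.

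The promoter sequences below are examples: the licensing genes Mcm5, Mcm6, Cdc6 and Cdt1, the chromatin gene Uhrf1 and the clamp loader gene Rfc1. Each runs from 250 bases before to 50 bases after the start in the RefSeq annotation of GRCm38.p6, 5′ to 3′ on the strand of the gene. Capitals mark matches to an E2F motif, searched on both strands in 4 spellings: TTTGGCGC, TTTCGCGC, TTTCCCGC and TTTGCCGC. In Mcm5 and Mcm6 a TTTCGCGC and a TTTGGCGC match on opposite strands overlap and make 1 run of capitals. Rfc1, whose RNA varied most between libraries, has no match in this window. Uhrf1 has another window, chr17:56303087-56303386, which is not printed and holds 0 matches. Most windows printed here hold a match, while only 12 of the 33 genes with a promoter entry had one.
Mcm5 (chr8:75109259-75109558, plus strand): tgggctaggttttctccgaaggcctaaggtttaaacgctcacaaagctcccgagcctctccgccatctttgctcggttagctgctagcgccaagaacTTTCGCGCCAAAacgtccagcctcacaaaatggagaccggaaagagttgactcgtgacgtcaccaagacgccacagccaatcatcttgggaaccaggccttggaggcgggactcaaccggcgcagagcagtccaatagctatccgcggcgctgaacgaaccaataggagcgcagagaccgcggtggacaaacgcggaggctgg
Mcm6 (chr1:128359656-128359955, minus strand): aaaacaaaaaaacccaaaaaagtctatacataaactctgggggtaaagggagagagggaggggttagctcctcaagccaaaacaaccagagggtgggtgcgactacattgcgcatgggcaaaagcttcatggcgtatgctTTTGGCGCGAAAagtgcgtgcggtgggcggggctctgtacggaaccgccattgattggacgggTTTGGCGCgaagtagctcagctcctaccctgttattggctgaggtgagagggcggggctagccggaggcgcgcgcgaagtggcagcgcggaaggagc
Cdc6 (chr11:98907901-98908200, plus strand): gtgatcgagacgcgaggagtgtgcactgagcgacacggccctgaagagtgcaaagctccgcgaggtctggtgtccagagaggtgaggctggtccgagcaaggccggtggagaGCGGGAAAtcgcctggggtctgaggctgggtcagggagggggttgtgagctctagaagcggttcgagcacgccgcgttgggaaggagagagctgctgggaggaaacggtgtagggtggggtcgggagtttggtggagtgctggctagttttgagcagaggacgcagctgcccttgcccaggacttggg
Cdt1 (chr8:122567765-122568064, plus strand): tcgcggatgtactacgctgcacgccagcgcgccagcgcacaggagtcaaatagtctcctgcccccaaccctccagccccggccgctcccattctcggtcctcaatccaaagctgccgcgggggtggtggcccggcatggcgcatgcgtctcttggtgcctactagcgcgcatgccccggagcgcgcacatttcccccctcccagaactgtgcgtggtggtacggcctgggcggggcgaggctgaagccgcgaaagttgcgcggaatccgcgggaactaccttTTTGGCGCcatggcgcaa
Uhrf1 (chr17:56304063-56304362, plus strand): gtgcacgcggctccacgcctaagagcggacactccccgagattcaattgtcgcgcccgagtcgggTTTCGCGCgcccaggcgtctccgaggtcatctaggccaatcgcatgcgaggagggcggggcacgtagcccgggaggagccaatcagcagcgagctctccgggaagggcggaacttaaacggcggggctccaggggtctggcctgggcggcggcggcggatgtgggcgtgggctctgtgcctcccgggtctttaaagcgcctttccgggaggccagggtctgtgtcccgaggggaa
Rfc1 (chr5:65335590-65335889, minus strand): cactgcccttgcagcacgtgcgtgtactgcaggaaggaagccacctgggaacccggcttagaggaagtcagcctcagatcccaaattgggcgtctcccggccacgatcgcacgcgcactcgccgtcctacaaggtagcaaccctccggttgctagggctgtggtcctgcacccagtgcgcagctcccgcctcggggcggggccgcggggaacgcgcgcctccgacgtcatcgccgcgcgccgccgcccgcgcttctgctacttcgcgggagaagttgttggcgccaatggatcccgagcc

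RefSeq promoters were found for 33 of the 41 genes, in 38 windows. An E2F match stood in 12 of the 38 windows (31.6%), against 744 of 32851 promoter windows of all genes (2.26%). The 12 genes with a match were Mcm3, Mcm5, Mcm6, Mcm7, Orc1, Cdc6, Cdt1, Rfc3, Pola1, Pold1, Lig1 and Uhrf1. Mcm6 held 3 matches, with leftmost bases at -110, -106 and -47 relative to the start, and that of Cdt1 lay after the start, at 33. The pentamer CCAAT, the core of the NF-Y motif, was found on either strand in 22 of the 38 windows (57.9%) and in 37.4% of all windows. In log2 fold change, 9 of the 12 genes with a match were positive (median 0.10), as were 13 of the 21 without one (median 0.09). A match is a description of these letters, not a binding site. The genes Mcm4, Gmnn, Gins1, Gins2, Rfc2, Pole, Prim2 and Ccne2 had no promoter entry.

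Counts assigned to genes ran from 17492085 to 22079844 per library, and no member had fewer than 202 reads in any library. Levels are given as CPM, the counts of a gene scaled to its library's total after TMM scaling. In malonyl-CoA 4, 2.94% of tallied reads lay in no gene, against 1.19% to 1.34% in the other malonyl-CoA libraries and 1.11% to 1.56% in the controls. Malonyl-CoA 4 and control 4 had the highest scores on the first principal component, at 63.3 and 25.3, which held 48.9% of the variance. Control 5 followed the GC share of transcripts across 12678 tested genes with a Spearman correlation of -0.67, where the other libraries lay between -0.09 and 0.44. The general blood marker Ptprc averaged 276 ± 56.3 CPM with malonyl-CoA and 228 ± 40.8 CPM in control, and Kit 244 ± 51.9 CPM with malonyl-CoA and 270.1 ± 36.7 CPM in control (SD, n = 4 each), while 10 stromal, endothelial and epithelial markers summed to 42.8 to 52.5 CPM with malonyl-CoA and 39.6 to 48.0 CPM in control.

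Replication genes were expressed in every library, and no difference between malonyl-CoA and control cultures passed the test at any of them. In edgeR's quasi-likelihood test on the deposited counts, 0 of the 41 passed an adjusted p under 0.05, and over all genes 0% did. At an unadjusted p under 0.05 there were 2 of 41, Ccne1 on the higher and Rfc4 on the lower side (4.88%, against 9.53% of all genes, 5.43% on the higher and 4.10% on the lower side). The smallest adjusted p of the 41 was 0.502 and the largest 0.987. DESeq2 called 0 of the 41, where it called 0.597% of the genes to which it gave an adjusted p. With the library number as a block in edgeR, 0 of the 41 passed and 172 genes over all did. At an unadjusted p under 0.05 that fit had 11 of 41 (26.8%, against 25.5% of all genes). In none of the 41 did the 4 malonyl-CoA libraries all lie above or all lie below the controls, which was so in 3.21% (above) and 2.93% (below) of all genes. The median log2 fold change, malonyl-CoA minus control, was 0.03 over the 41 genes and 0.02 over all genes tested, and it ran from -0.31 for Rfc4 to 0.58 for Rfc1. A positive value was seen for 25 genes (61.0%, against 53.4% of all genes) and a negative one for 16. This split was 19 to 22 after a correction for GC content and 20 to 21 without control 5.

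The intervals show how large a change these libraries leave room for in the fit without a block for the library number. The 95% interval of the log2 fold change lay wholly within a 1.5-fold change either way for 29 of the 41 genes and within a 2-fold change for 39. The exceptions to the wider bound were Rfc1 (-0.62 to 1.78) and Chaf1a (-0.17 to 1.18). Library-to-library spread was small for most of the genes. Over the 41, the median SD of log2 CPM was 0.13 in the malonyl-CoA group and 0.21 in control. Over all genes tested it was 0.23 with malonyl-CoA and 0.26 in control, but these were not matched to the 41 on read count. The most even gene was Mcm6, whose highest library was 1.14 times its lowest, and the least even was Rfc1, at 7.45 times.

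**Figure D1:**
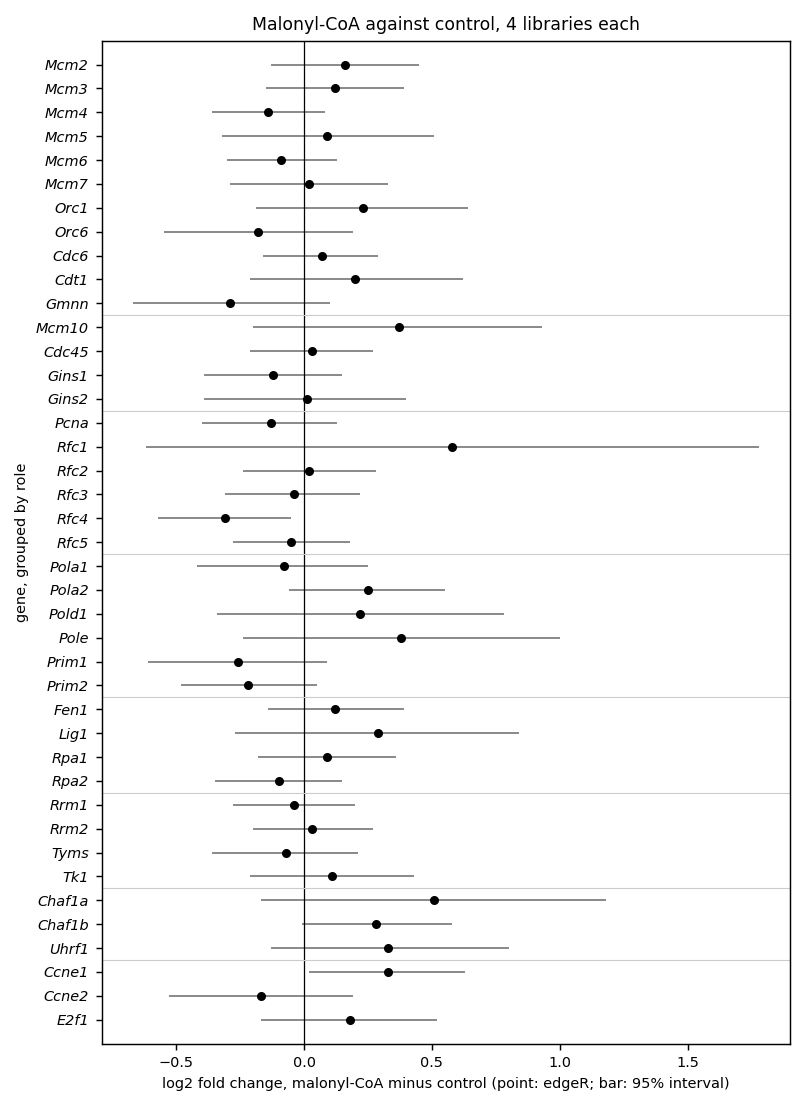
Log2 fold change (malonyl-CoA minus control, edgeR point and 95% interval, 4 libraries each) of the 41 genes, grouped by role. All intervals but those of Rfc4 and Ccne1 include 0, and the widest is that of Rfc1, from -0.62 to 1.78.

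Of the 11 origin licensing genes 7 had a positive log2 fold change (median 0.07), and 0 passed the test. The MCM genes were among the most abundant of the list. Between genes, levels are compared only per kilobase of the principal transcript, over which all counted exon reads were divided. Among the 6 subunits of the MCM helicase, which form a ring with 1 copy of each, Mcm6 stood highest at 239.9 ± 3.22 CPM per kb with malonyl-CoA and 255 ± 11.6 CPM per kb in control (SD, n = 4 each). Mcm4 stood at 76.6 ± 3.19 CPM per kb with malonyl-CoA and 84.3 ± 6.35 CPM per kb in control and Mcm2 at 85.8 ± 4.41 CPM per kb with malonyl-CoA and 76.8 ± 13.0 CPM per kb in control (SD, n = 4 each). Mcm2 and Mcm4 differed by less than the sum of their SDs in control, and so did Mcm3 (153 ± 5.88 CPM per kb with malonyl-CoA and 141 ± 20.9 CPM per kb in control) and Mcm7 (144 ± 5.72 CPM per kb with malonyl-CoA and 142 ± 24.9 CPM per kb in control) in either group. Mcm6 itself had 697, 700.5, 687 and 709 CPM in malonyl-CoA 1, 3, 4 and 5, against 722, 707, 781 and 756 CPM in controls 1, 3, 4 and 5 (log2 fold change -0.09, SE 0.10, edgeR adjusted p = 0.688). Its groups overlapped, since control 3 lay below malonyl-CoA 5. Summed over the 6 subunits, the libraries held 2463 to 2569 CPM with malonyl-CoA and 2197 to 2777 CPM in control, where control 5 was lowest and control 4 highest.

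**Figure D2:**
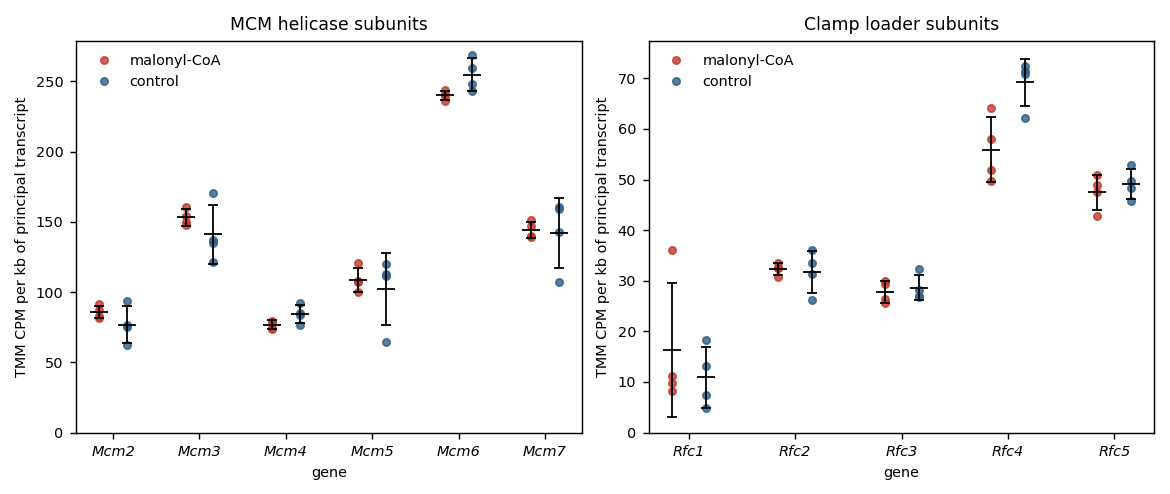
Levels of the MCM and clamp loader subunits in TMM CPM per kb of principal transcript, with 1 point per library, malonyl-CoA left of control, and bars for the mean and SD. Mcm6 lies above the other MCM subunits in all libraries, and Rfc1 has the widest scatter among the loader subunits.

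The MCM genes differed in which libraries stood out. Mcm5 had 408, 362, 364 and 339 CPM in malonyl-CoA 1, 3, 4 and 5, against 405, 376, 380.5 and 217 CPM in controls 1, 3, 4 and 5 (log2 fold change 0.09, SE 0.18). Control 5 alone was low, and without it the log2 fold change was -0.07. Mcm2 (0.16, SE 0.13) and Mcm3 (0.12, SE 0.12) were highest in both libraries numbered 4 and lowest in control 5. Mcm7 was at 0.02 (SE 0.14) and -0.11 after the GC correction, and Mcm4 at -0.14 (SE 0.10), with control 5 its highest library. The Mcm7 gene also holds 3 microRNA genes, Mir25, Mir93 and Mir106b, on its own strand, of which Mir25 and Mir93 share exon bases with it.

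The loaders and their brake were also without a called change. Cdt1, which brings the MCM ring to origins, had 106, 90.3, 119 and 86.9 CPM in malonyl-CoA 1, 3, 4 and 5, against 103, 93.1, 94.4 and 58.3 CPM in controls 1, 3, 4 and 5 (log2 fold change 0.20, SE 0.18, edgeR adjusted p = 0.631). Geminin, encoded by Gmnn, binds Cdt1 and blocks further loading once S phase has begun, and it had 66.1, 67.2, 64.2 and 86.7 CPM in malonyl-CoA 1, 3, 4 and 5, against 82.9, 76.3, 71.2 and 116 CPM in controls 1, 3, 4 and 5 (log2 fold change -0.29, SE 0.17, edgeR adjusted p = 0.535). In control 5 Cdt1 was at its lowest and Gmnn at its highest of all libraries, and without control 5 the log2 fold changes were 0.05 for Cdt1 and -0.11 for Gmnn. After the GC correction they were -0.04 for Cdt1 and -0.34 for Gmnn, and after that for GC and length -0.0048 and -0.18. Cdc6, the ATPase that works with Cdt1, was even, with 64.4, 63.6, 59.9 and 59.1 CPM with malonyl-CoA and 61.1, 61.3, 59.7 and 53.6 CPM in control (0.07, SE 0.10). Of the origin recognition complex, Orc1 had 14.6, 15.4, 20.8 and 15.3 CPM with malonyl-CoA and 12.8, 10.9, 17.4 and 15.4 CPM in control (0.23, SE 0.19), the lowest level per length on the list, and Orc6 had 65.9, 64.0, 58.7 and 77.5 CPM with malonyl-CoA and 69.9, 72.9, 59.1 and 99.1 CPM in control (-0.18, SE 0.17). The libraries numbered 4 were the highest for Orc1 and the lowest for Orc6.

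Of the 4 genes of helicase activation 3 had a positive log2 fold change (median 0.02), and 0 passed the test. Mcm10, which helps to switch on the loaded helicase, had 47.7, 47.7, 83.5 and 47.7 CPM in malonyl-CoA 1, 3, 4 and 5, against 30.9, 39.0, 62.3 and 43.2 CPM in controls 1, 3, 4 and 5 (log2 fold change 0.37, SE 0.25, edgeR adjusted p = 0.553). Malonyl-CoA 1, 3 and 5 were equal to the decimal shown, and malonyl-CoA 4 stood far above them. Its log2 fold change was 0.11 without malonyl-CoA 4, 0.59 without control 4 and 0.33 without both. Cdc45, which with MCM and GINS forms the active helicase, averaged 102 ± 4.05 CPM with malonyl-CoA and 100 ± 10.4 CPM in control (SD, n = 4 each, log2 fold change 0.03). The GINS genes were at -0.12 (Gins1, SE 0.12) and 0.01 (Gins2, SE 0.18). Exons of Gse1 on the opposite strand cover 67.3% of the exon bases of Gins2, and the strand setting of the counting is not given in the sources used here, so the Gins2 count is uncertain.

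Of the 6 genes of the clamp and its loader 2 had a positive log2 fold change (median -0.05), and 0 passed the test. The sliding clamp gene Pcna, whose product holds polymerases on DNA, stood at 239 ± 28.2 CPM per kb with malonyl-CoA and 263 ± 21.7 CPM per kb in control (SD, n = 4 each), near Mcm6 and above the other genes of the list. It had 382, 338, 319.6 and 414 CPM in malonyl-CoA 1, 3, 4 and 5, against 419, 383, 361 and 432 CPM in controls 1, 3, 4 and 5 (log2 fold change -0.13, SE 0.12, edgeR adjusted p = 0.627), and the groups overlapped widely. The clamp loader opens that ring and has a large subunit, Rfc1, and smaller ones, Rfc2 to Rfc5. Rfc4 had 71.2, 63.7, 61.1 and 78.7 CPM in malonyl-CoA 1, 3, 4 and 5, against 87.6, 87.0, 76.4 and 88.9 CPM in controls 1, 3, 4 and 5 (log2 fold change -0.31, SE 0.12, edgeR adjusted p = 0.502), the smallest p of the 41 genes (unadjusted p = 0.0253). Of the malonyl-CoA libraries only number 5 overlapped the controls, through control 4. Its log2 fold change was -0.23 after the GC correction, -0.10 after a correction for GC and length, and between -0.36 and -0.26 in the 4 comparisons that left out control 4, control 5, malonyl-CoA 4 or both libraries numbered 4. Rfc2, Rfc3 and Rfc5 lay between -0.05 and 0.02 in log2 fold change.

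Rfc1 varied more between libraries than the other loader subunits. It had 46.6, 53.4, 172 and 38.9 CPM in malonyl-CoA 1, 3, 4 and 5, against 23.0, 35.2, 86.5 and 62.9 CPM in controls 1, 3, 4 and 5 (log2 fold change 0.58, SE 0.54, edgeR adjusted p = 0.636). Malonyl-CoA 4 held more than any other library, control 4 came next, and control 1 held the least. The log2 fold change was -0.17 without malonyl-CoA 4, 0.94 without control 4 and 0.20 without both, so its sign turned when malonyl-CoA 4 was left out and control 4 was kept. The highest library of Rfc2, Rfc3, Rfc4 and Rfc5 was at most 1.46 times the lowest.

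Of the 6 polymerase and primase genes 3 had a positive log2 fold change (median 0.07), and 0 passed the test. DNA polymerase alpha and primase form 1 complex that lays the primers, with the catalytic subunit Pola1, its partner Pola2 and the primase subunits Prim1 and Prim2. Pola2 was at 0.25 (SE 0.14), Pola1 at -0.08 (SE 0.15), Prim1 at -0.26 (SE 0.16) and Prim2 at -0.22 (SE 0.12) in log2 fold change, and the differences between the subunits were not tested. Prim1 had 73.4, 73.1, 75.5 and 81.2 CPM in malonyl-CoA 1, 3, 4 and 5, against 83.7, 77.1, 78.9 and 122.8 CPM in controls 1, 3, 4 and 5, and control 5 alone set it apart, since the log2 fold change was -0.08 without that library and -0.32 without both libraries numbered 4. Prim2 had 61.3, 61.1, 54.5 and 62.0 CPM in malonyl-CoA 1, 3, 4 and 5, against 80.7, 67.1, 60.7 and 69.1 CPM in controls 1, 3, 4 and 5, where malonyl-CoA 4 was lowest and only control 4 overlapped the malonyl-CoA libraries.

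The leading and lagging strand polymerase genes had wide intervals. Pold1, the catalytic subunit of polymerase delta, had 147, 127, 166 and 126 CPM in malonyl-CoA 1, 3, 4 and 5, against 144, 129, 153 and 61.8 CPM in controls 1, 3, 4 and 5 (log2 fold change 0.22, SE 0.25, edgeR adjusted p = 0.701). Control 5 held less than any other library, and without it the log2 fold change was -0.0016. The Pold1 transcript has the highest GC share of the list, 61.0%. Pole, the catalytic subunit of polymerase epsilon, had 67.8, 78.9, 124 and 56.6 CPM in malonyl-CoA 1, 3, 4 and 5, against 46.7, 49.7, 89.3 and 65.9 CPM in controls 1, 3, 4 and 5 (log2 fold change 0.38, SE 0.28, edgeR adjusted p = 0.569). Both libraries numbered 4 lay above the other 6. The log2 fold change was 0.10 without malonyl-CoA 4, 0.60 without control 4, 0.32 without both and 0.14 after the correction for GC and length.

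On the lagging strand, Fen1 trims and Lig1 joins the short fragments, and the Rpa genes encode the proteins that coat single-stranded DNA. Of these 4 genes 3 had a positive log2 fold change (median 0.11), and 0 passed the test. Lig1 had 109, 111, 180.3 and 103 CPM in malonyl-CoA 1, 3, 4 and 5, against 76.4, 87.3, 153 and 96.1 CPM in controls 1, 3, 4 and 5 (log2 fold change 0.29, SE 0.25, edgeR adjusted p = 0.618), again highest in both libraries numbered 4. It was at 0.05 without malonyl-CoA 4, 0.54 without control 4, 0.31 without both and 0.14 after the GC correction. Fen1 averaged 178 ± 14.1 CPM with malonyl-CoA and 163 ± 18.8 CPM in control (SD, n = 4 each, log2 fold change 0.12). An antisense gene, Gm10143, covers 78.8% of its exon bases, so this count carries the same strand uncertainty as that of Gins2. Rpa1 and Rpa2 were at 0.09 (SE 0.12) and -0.10 (SE 0.11).

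Of the 4 nucleotide supply genes 2 had a positive log2 fold change (median -0.0033), and 0 passed the test. Ribonucleotide reductase, made of Rrm1 and Rrm2, turns ribonucleotides into deoxyribonucleotides. Rrm1 had 581, 583, 524 and 586 CPM with malonyl-CoA and 559, 535, 585 and 659.6 CPM in control (-0.04, SE 0.11) and Rrm2, the subunit whose level follows the cell cycle, had 236, 234, 239 and 283 CPM with malonyl-CoA and 241, 231, 234 and 263 CPM in control (0.03, SE 0.11). The thymidylate genes Tyms and Tk1 were at -0.07 (SE 0.13) and 0.11 (SE 0.14). All 4 intervals lay between -0.36 and 0.43 on the log2 scale.

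The 3 genes of chromatin replication were each higher with malonyl-CoA by a log2 fold change of 0.28 to 0.51, and 0 passed the test. Chaf1a and Chaf1b encode subunits of chromatin assembly factor 1, which places new histones behind the fork, and Uhrf1 brings the maintenance DNA methyltransferase to newly copied DNA. Chaf1a had 63.9, 65.0, 119 and 64.1 CPM in malonyl-CoA 1, 3, 4 and 5, against 37.1, 49.7, 88.2 and 44.5 CPM in controls 1, 3, 4 and 5 (log2 fold change 0.51, SE 0.30, edgeR adjusted p = 0.531). Chaf1b had 48.3, 45.7, 54.4 and 45.7 CPM in malonyl-CoA 1, 3, 4 and 5, against 37.9, 38.1, 48.3 and 35.4 CPM in controls 1, 3, 4 and 5 (log2 fold change 0.28, SE 0.13, edgeR adjusted p = 0.515), with control 4 the only control to overlap the malonyl-CoA libraries. Uhrf1 had 219, 219.9, 302 and 211 CPM in malonyl-CoA 1, 3, 4 and 5, against 153, 162, 277 and 162 CPM in controls 1, 3, 4 and 5 (log2 fold change 0.33, SE 0.21, edgeR adjusted p = 0.539), and here, as for Chaf1a, only control 4 lay inside the malonyl-CoA range. Without malonyl-CoA 4 the 3 values were 0.22 (Chaf1a), 0.21 (Chaf1b) and 0.19 (Uhrf1), and without control 4 they were 0.83, 0.39 and 0.58. Leaving out both libraries numbered 4 gave 0.55 for Chaf1a (edgeR adjusted p = 0.160), 0.32 for Chaf1b (0.228) and 0.44 for Uhrf1 (0.158). With GC correction the values were 0.39 (Chaf1a), 0.23 (Chaf1b) and 0.19 (Uhrf1), and with GC and length correction 0.23, 0.26 and 0.19. Leaving out control 5 as well, a choice made after seeing the data that leaves 3 malonyl-CoA libraries against 2 controls, Uhrf1 passed at 0.44 (edgeR adjusted p = 0.0471), 1 of 41 genes where 1.50% of all genes passed. Exons of Ubxn6 on the opposite strand cover 52.5% of the exon bases of Chaf1a, which makes its count uncertain.

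At the G1 to S transition, the E-type cyclins activate Cdk2, and E2f1 is an activating member of the E2F family. Of these 3 genes 2 had a positive log2 fold change (median 0.18), and 0 passed the test. Ccne1 had 18.5, 19.3, 15.5 and 20.3 CPM in malonyl-CoA 1, 3, 4 and 5, against 14.9, 15.97, 15.05 and 12.8 CPM in controls 1, 3, 4 and 5 (log2 fold change 0.33, SE 0.14, edgeR adjusted p = 0.515, unadjusted p = 0.0403). Malonyl-CoA 4 was the only malonyl-CoA library inside the control range, and the log2 fold change was 0.39 without it, 0.26 without control 5 and 0.21 after the GC correction. The other E-type cyclin gene, Ccne2, pointed the other way (-0.17, SE 0.16). It had 68.2, 68.2, 48.4 and 52.4 CPM with malonyl-CoA and 79.5, 70.8, 57.9 and 59.2 CPM in control. Ccne2 was the more abundant of the pair per length, at 19.7 ± 3.46 CPM per kb with malonyl-CoA and 22.2 ± 3.41 CPM per kb in control, against 9.21 ± 1.04 CPM per kb with malonyl-CoA and 7.34 ± 0.666 CPM per kb in control for Ccne1 (SD, n = 4 each). E2f1 had 64.1, 54.7, 58.9 and 70.4 CPM with malonyl-CoA and 61.0, 61.5, 56.2 and 40.9 CPM in control (0.18, SE 0.15) and was at -0.09 after the GC correction.

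Which way a gene leaned went with the base composition of its transcript. All of the 10 members with the highest GC share (52.7% to 61.0%) had a positive log2 fold change, with a median of 0.21, and none of the 10 with the lowest (36.3% to 45.5%) did, with a median of -0.16. Over all genes tested, 76.9% of the 4153 with a GC share of 52.7% or more were positive. Of the 3679 with 45.5% or less, 28.8% were. Unlike the ranges of the members, these 2 sets have no outer bound. Across the 41 genes the log2 fold change followed GC with a Spearman correlation of 0.58, and across 12678 genes with 0.44. These values describe genes that share the same 8 libraries. A loess correction for GC content removes the relation with GC by construction, so the values after it do not test that relation. After it the Spearman correlation was 0.08 over the 41 and -0.01 over all genes. Of the 10 GC-rich members 4 were then positive, and of the 10 GC-poor members 3. Without control 5, and with no correction, the correlation over the 41 was 0.32, with 7 and 2 positive.

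Control 5 had the strongest relation with GC of the 8 libraries. Its deviations from the mean of each gene followed GC with a Spearman correlation of -0.82 over the 41 genes, and those of malonyl-CoA 1 with 0.68. Control 5 was the lowest of the 8 libraries for 17 members (41.5%, against 22.7% of all genes) and the highest for 8 (19.5%, against 20.6%). The 8 were Mcm4, Orc6, Gmnn, Pcna, Rfc3, Rfc4, Prim1 and Rrm1. Among the 17 were Mcm2, Mcm3, Mcm5, Mcm7, Cdt1, Gins2, Pold1, Tk1, Ccne1 and E2f1. The part of base composition in the log2 fold changes was not tested.

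**Figure D3:**
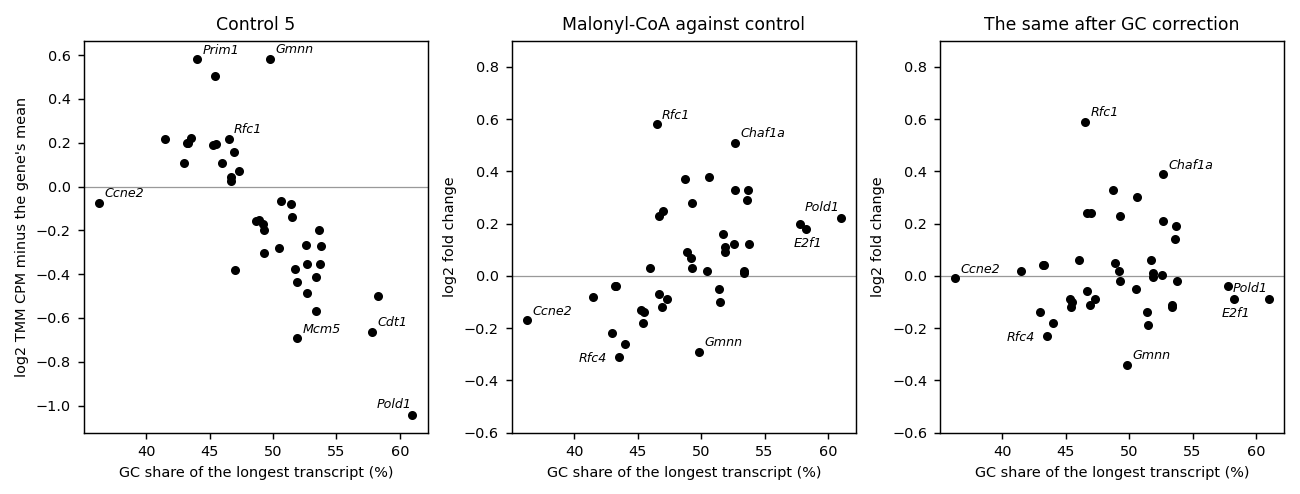
GC share of the longest transcript (%) of each of the 41 genes against its log2 CPM deviation in control 5 (left), its log2 fold change for malonyl-CoA against control (middle), and the same after GC correction (right). The Spearman correlation is -0.82 on the left, 0.58 in the middle and 0.08 on the right, where the correction itself removes the relation with GC.

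The libraries numbered 4, looked at apart with earlier results of these data known, formed the other departure. Both lay above the other 6 libraries for 13 of the 41 genes (31.7%, against 17.2% of all genes) and below them for 2, Orc6 and Prim2 (4.88%, against 14.4%). The 13 were Mcm2, Mcm3, Mcm10, Orc1, Rfc1, Pola1, Pola2, Pold1, Pole, Lig1, Rpa1, Chaf1a and Uhrf1. In 11 genes (26.8%, against 31.4% of all genes) malonyl-CoA 4 was the highest of all libraries, and in another 11 (26.8%, against 24.3%), among them Pcna, Tyms, Rrm1, Ccne2 and Rfc4, it was the lowest. Its excess over the median of malonyl-CoA 1, 3 and 5 was largest for Rfc1 (1.88 on the log2 scale), Chaf1a (0.89), Pole (0.87), Mcm10 (0.81) and Lig1 (0.72). For control 4 over the median of the other controls the same genes had 1.30, 0.99, 0.84, 0.67 and 0.80. Deviations in both libraries ran with the length of the principal transcript, with a Spearman correlation of 0.60 in malonyl-CoA 4 and 0.70 in control 4 over the 41 genes, and 0.42 in malonyl-CoA 4 and 0.29 in control 4 over 12678 genes. Other libraries also ran with length over the 41 genes, at 0.14, 0.51 and -0.53 in malonyl-CoA 1, 3 and 5. In controls 1, 3 and 5 the correlation was -0.37, -0.47 and -0.27. The log2 fold change itself followed length at 0.48 over the 41 genes and 0.23 over 12678 genes. After GC correction these were 0.48 and 0.36. The part of transcript length in the log2 fold changes was not tested. The length correction used the longest transcript of each gene, not the principal transcript. With GC and length correction the log2 fold changes of these 5 genes were 0.51 (Rfc1), 0.23 (Chaf1a), 0.14 (Pole), 0.27 (Mcm10) and 0.15 (Lig1), against 0.58, 0.51, 0.38, 0.37 and 0.29 uncorrected.

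**Figure D4:**
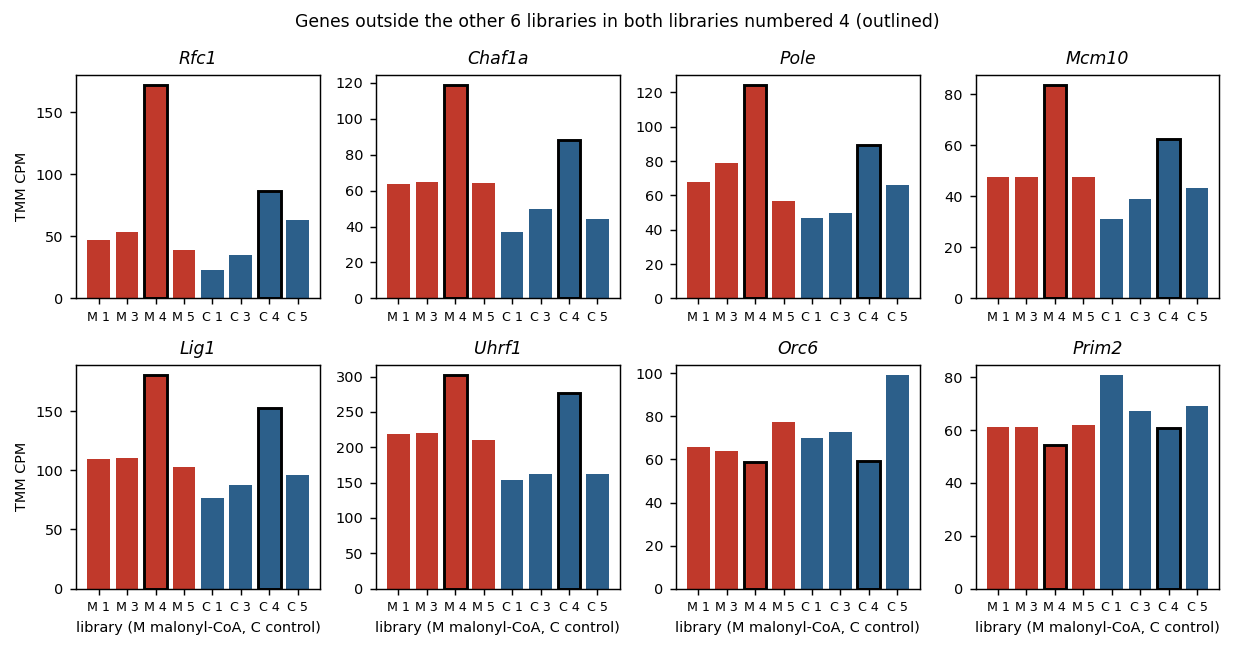
TMM CPM in each library of 6 genes that were highest and 2 genes (Orc6 and Prim2) that were lowest in both libraries numbered 4, which are outlined, with malonyl-CoA (M) left of control (C). Rfc1 reaches 172 CPM in malonyl-CoA 4 and 86.5 CPM in control 4, and 23.0 to 62.9 CPM elsewhere.

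**Figure D5:**
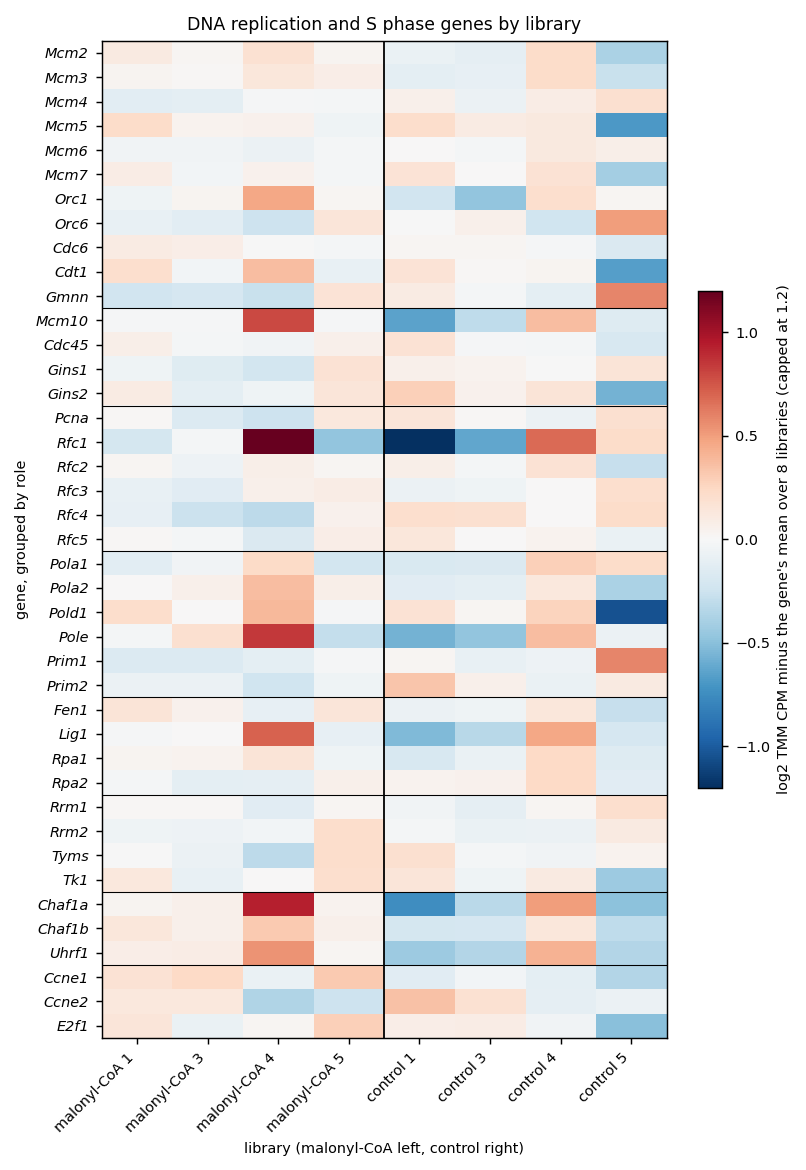
Log2 TMM CPM minus the mean of each gene over the 8 libraries, for the 41 genes grouped by role, malonyl-CoA left and control right. Malonyl-CoA 4 and control 5 depart most widely over the list, and no gene separates the 2 groups.

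Further genes of the replication machinery were read from the same fit. Of 15 further genes of origin licensing and firing, 8 were positive and 7 negative in log2 fold change, with a median of 0.0049. The smallest p was that of the helicase gene Recql4 (0.64, SE 0.31), then of the origin recognition genes Orc3 (-0.18) and Orc5 (-0.17). Among 20 further fork genes 9 were positive (median -0.06), and the smallest p were those of Rpa3 (-0.50, SE 0.23), the small subunit of the single-strand binding protein, Pole4 (-0.34) and Dscc1 (-0.36). Of 20 further nucleotide genes 7 were positive (median -0.06), and the smallest p were those of Ctps2 (-0.23), Cmpk1 (-0.31) and the pyrimidine gene Cad (0.40, SE 0.23). Of 10 tested checkpoint genes 4 were positive (median -0.14), and the smallest p was that of Rad1 (-0.44, SE 0.15), a subunit of the checkpoint clamp, with the kinase genes Wee1 (-0.26) and Chek1 (-0.20) next. In these 4 lists 0 genes passed edgeR's test at an adjusted p under 0.05. Only 1, Rad1, had an unadjusted p under 0.05, where 9.53% of all genes did. Rad1 had 30.3, 26.4, 24.0 and 32.8 CPM with malonyl-CoA and 44.4, 34.7, 34.3 and 40.8 CPM in control, so its groups did not overlap. In 2.93% of all genes tested the malonyl-CoA libraries all lay below the controls.

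Of 12 further chromatin genes 5 were positive (median -0.05), with Rbbp4 (-0.28), Slbp (-0.17) and Dnmt1 named by p. Dnmt1, the maintenance methyltransferase that Uhrf1 recruits, had 164, 181, 466 and 124 CPM in malonyl-CoA 1, 3, 4 and 5, against 83.7, 103, 241 and 108 CPM in controls 1, 3, 4 and 5 (log2 fold change 0.80, SE 0.46, edgeR adjusted p = 0.524). As with Uhrf1, both libraries numbered 4 were the highest. Of 29 tested genes of G1/S control 17 were positive (median 0.03), and the smallest p were those of the repressor-type E2f4 (0.43, SE 0.17), Mycn (0.37, SE 0.16) and E2f2 (0.18). Mycn had 16.3, 19.3, 17.9 and 16.4 CPM with malonyl-CoA and 11.6, 16.03, 11.0 and 15.4 CPM in control, so its groups did not overlap, while its edgeR adjusted p was 0.515. In 3.21% of all genes tested the malonyl-CoA libraries all lay above the controls. Only 8 of 66 replication-dependent histone genes passed the filter, 3 of them positive, and 11 of the 66 had no read in any library. These genes have near-identical copies. The row for alignments at several positions held 38.2% to 51.1% of all tallies over whole libraries and was not counted. A read may enter that row more than once, and the share that fell on histone genes is not known. The cause of the low histone counts was not tested. The named histone genes were Hist2h2be (-0.42), Hist3h2a (-0.36) and Hist1h2be (-0.36). Across these 3 lists 0 genes passed edgeR's test, and 2, E2f4 and Mycn, had an unadjusted p under 0.05, where 9.53% of all genes did.

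G2/M and mitosis genes, which act after S phase, are the nearest neighbours of the list. Of 29, 19 were positive (65.5%, against 53.4% of all genes), with a median log2 fold change of 0.13, against 0.03 for the replication genes. In edgeR's test 0 of the 29 passed, with 0 at an unadjusted p under 0.05, against 9.53% of all genes. Foxm1 (0.52, SE 0.24), Espl1 (0.43) and Plk1 (0.24) had the smallest p. Mki67, the gene of the proliferation marker Ki-67, chosen after its values were seen, had 58.2, 70.0, 536 and 38.4 CPM in malonyl-CoA 1, 3, 4 and 5, against 21.4, 36.5, 129 and 69.0 CPM in controls 1, 3, 4 and 5 (log2 fold change 1.46, SE 0.87). Malonyl-CoA 4 was the highest library and control 4 the next, as for Rfc1.

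Markers of the blood cells that such cultures can hold were also read, and 0 passed edgeR's test. The sum of 10 monocyte and macrophage markers was 595 to 752 CPM with malonyl-CoA and 458 to 585 CPM in control, with 7 of 8 tested genes positive and 4 at an unadjusted p under 0.05. Granulocyte markers summed to 13704 to 17519.8 CPM with malonyl-CoA and 13548 to 21398 CPM in control, and all 10 were negative, 5 of them at an unadjusted p under 0.05. Mast cell and basophil markers summed to 701 to 838 CPM with malonyl-CoA and 857 to 1056 CPM in control, with 7 of 10 negative and 5 at an unadjusted p under 0.05. Dendritic cell markers had 8 of 9 tested genes positive, stem and progenitor markers 5 of 9, megakaryocyte markers 4 of 10, erythroid markers 2 of 6 and lymphoid markers 0 of 5. In the same order, 5, 2, 0, 2 and 3 genes of these lists had an unadjusted p under 0.05 in edgeR's test. Over all genes tested, 53.4% were positive and 9.53% had an unadjusted p under 0.05. At 0 in all libraries were the erythroid gene Alas2, the T cell gene Cd3e and the collagen gene Col3a1. The part of cell composition in the replication gene values was not tested.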

How the data were processed

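RNA from 8 samples (350 ng of total RNA each) was made into stranded total RNA libraries. The authors deposited whole-number counts of reads per Ensembl gene, not normalized, and the submitters' processing notes name STAR 2.5.2b, cutadapt 1.8, HTSeq 0.6.1 and GRCm38, with the strand setting of the counting not given in the sources used here. Rows for reads in no gene, in several genes or at several positions were left out of library sizes and tests. Shares of tallied reads are shares of the sum of gene counts and such rows, where a read with several positions may be tallied more than once. From the counts, genes were kept by edgeR's filterByExpr (minimum count 10, minimum total 15), scaled by TMM and tested by the two-sided quasi-likelihood test of edgeR 4.0.16 in R 4.3.3, with Benjamini-Hochberg adjustment over 12696 genes and a threshold of 0.05. CPM values use the TMM-scaled library sizes. The alternatives were DESeq2 1.42.0, other scalings and filters, loess corrections (span 0.5) for GC content and length, the library number as a block, and libraries left out. GC content and length in these corrections are those of the longest transcript of each gene. Symbols, lengths and overlaps come from GENCODE M21. The code was tested on simulated counts. Members and lists were chosen with earlier results of these data known, and of each further list the 3 genes with the smallest p are named. The libraries held 17492085 to 22079844 gene counts each.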

Additional observations from a re-analysis of the deposited data

Results flagged for a closer look

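A library standing apart from the other 3 of its group by Dixon's criterion was found 14 times. The 82 tests covered 41 genes in 2 groups. The nominal rate is about 1 in 20, but the tests share the same 8 libraries, and the rate over all genes was not counted. Over all genes tested, malonyl-CoA 4 was the highest library in 31.4% and the lowest in 24.3%. Malonyl-CoA 4 accounted for 8 of the 14. It was the highest malonyl-CoA library for Rfc1 (172 CPM, next 53.4), Lig1 (180.3 CPM, next 111), Chaf1a (119 CPM, next 65.0), Mcm10 (83.5 CPM, next 47.7), Uhrf1 (302 CPM, next 219.9) and Orc1 (20.8 CPM, next 15.4), and the lowest for Rrm1 (524 CPM, next 581) and Prim2 (54.5 CPM, next 61.1). Malonyl-CoA 5 was high for Gmnn (86.7 CPM, next 67.2) and Rrm2 (283 CPM, next 239). Control 4 was high for Uhrf1 (277 CPM, next 162) and low for Rfc4 (76.4 CPM, next 87.0). Control 5 was high for Prim1 (122.8 CPM, next 83.7) and low for Mcm5 (217 CPM, next 376). Outside the gene counts, malonyl-CoA 4 had 2.94% of tallied reads in no gene, above the highest control at 1.56%.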

How the results depend on the processing

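No replication gene passed the threshold under any of the alternatives but 1, which leaves out control 5 and both libraries numbered 4. Of 943 log2 fold changes of the 41 genes under 23 alternatives, 861 kept their sign and side of the threshold, 81 changed sign and 1 passed the threshold, and 19 genes never changed sign. Over all genes, the count past the threshold was 0 with edgeR as reported, 82 with DESeq2, 1 with no low-count filter, 172 with the replicate block and 6 with the block and a GC correction. The meaning of the library numbers is not given in the labels. Correlations of deviations between libraries of the same number were 0.435, 0.428, 0.754 and 0.052 for numbers 1, 3, 4 and 5. Numbers 1, 3 and 4 each matched its own number best, and number 5 did not. The numbers were not taken as pairs, because a rule set here asked for over 0.1 in every number. These values do not exclude pairs at numbers 1, 3 and 4. SEs, intervals and adjusted p of single genes come from fits without the block unless the block is named. With the replicate block 0 of the 41 genes passed, and the smallest adjusted p, that of Chaf1a, was 0.0537, while 11 of the 41 (26.8%) had an unadjusted p under 0.05, against 25.5% of all genes. With the block and GC correction these were 5 of 41 (12.2%), against 20.7% of all genes. Leaving out control 5 and both libraries numbered 4, chosen after seeing the data, gave 192 genes over all and 1 of the 41, Uhrf1 at 0.44. With library size only, 1 gene and not 2 was below the other 6 libraries in both numbered 4. The cause was not tested for any of these.

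Signs changed, in log2 fold change, with GC correction for Mcm5 -0.0046, Mcm7 -0.11, Cdt1 -0.044, Cdc45 -0.022, Gins2 -0.12, Rfc2 -0.052, Rfc3 0.039, Pola1 0.015, Pold1 -0.088, Fen1 -0.021, Rrm1 0.038 and E2f1 -0.086. With GC and length correction they changed for Mcm7 -0.091, Cdc6 -0.029, Cdt1 -0.0048, Gins1 0.049, Gins2 -0.14, Pcna 0.019, Rfc2 -0.11, Rfc3 0.07, Pold1 -0.084, Rpa1 -0.012, Ccne2 0.0083 and E2f1 -0.059. With the replicate block and GC correction they changed for Mcm7 -0.11, Cdt1 -0.039, Cdc45 -0.016, Gins2 -0.11, Rfc2 -0.044, Rfc3 0.037, Pola1 0.024, Pold1 -0.067, Fen1 -0.027, Rrm1 0.038 and E2f1 -0.094. The next 2 alternatives were added after seeing the data. Without control 5 and malonyl-CoA 4, signs changed for Mcm5 -0.069, Mcm7 -0.10, Orc6 0.038, Cdt1 -0.039, Cdc45 -0.013, Gins2 -0.12, Rfc1 -0.064, Rfc2 -0.077, Pold1 -0.088, Rrm1 0.059 and Tyms 0.0067. Without control 5 and both libraries numbered 4, they changed for Mcm5 -0.10, Mcm7 -0.094, Cdt1 -0.078, Cdc45 -0.067, Gins2 -0.15, Rfc2 -0.045, Pola1 0.029, Pold1 -0.05 and Rrm1 0.072. Without the libraries numbered 5 of both groups, signs changed for Mcm5 -0.031, Mcm7 -0.075, Cdc45 -0.043, Gins2 -0.18, Rfc2 -0.058, Pola1 0.039, Rrm1 0.013, Tk1 -0.046 and E2f1 -0.003. With each library left out in turn, genes that changed sign at least once ranged over Cdc45 -0.033 to 0.091, Gins2 -0.15 to 0.11, Mcm5 -0.074 to 0.18, Mcm7 -0.094 to 0.084, Pola1 -0.19 to 0.0045, Pold1 -0.0016 to 0.35, Rfc1 -0.17 to 0.94, Rfc2 -0.06 to 0.088, Rfc3 -0.08 to 0.021, Rrm1 -0.081 to 0.022, Rrm2 -0.035 to 0.076 and Tk1 -0.004 to 0.18. The cause was not tested.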
